A study of Mus musculus with 6 samples.

Results

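The genes described are Trp53, which encodes the transcription factor p53, with the regulators that control the p53 protein and genes described as its targets, 33 genes of the 27179 in the count table. They were taken by symbol from a list of Trp53, its regulators and described targets, and all 33 were found. The cells were mouse embryonic stem cells (ES-E14TG2a background) whose poly(A) RNA was sequenced after growth on gelatin in 2i with LIF, which combines the MEK inhibitor PD0325901, the GSK3 inhibitor CHIR99021 and leukemia inhibitory factor. Both groups expressed Trim71, an RNA-binding TRIM-NHL protein, with a FLAG tag. One group (R783H, libraries A, B and C) carried the R783H amino-acid change in Trim71, which the study links to hydrocephalus, and the other (WT, libraries A, B and C) did not. The labels do not say how many clones each group represents, nor whether a letter stands for a separate culture, so the p values measure the spread between these libraries, which may be technical. Values of single libraries are listed in the order A, B, C, and each log2 ratio is that of R783H over WT. In RNA from whole cultures, fewer cells with an mRNA and less of it per cell cannot be told apart.

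p53 is held at a low level by the ubiquitin ligase Mdm2 and by its relative Mdm4, and it accumulates when DNA is damaged or ribosome assembly is disturbed. Active p53 binds paired copies of a short half-site in DNA and raises the transcription of genes for cell cycle arrest, DNA repair, apoptosis and metabolism. Mdm2 is itself a target, which closes a negative feedback loop. Because p53 is controlled largely through the stability of its protein, the mRNA counts measured here do not show how much p53 protein was present or active.

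Total counts ran from 20894277 to 29079670 per library, and each R783H library was deeper than each WT library. The 8 stem cell markers examined stood at 496 CPM (counts scaled to a common library size, with TMM factors) or higher in every library. Of these, 2 were called higher in R783H, 3 lower and 3 not called, where 64.5% of all tested genes were called. They summed to between 6789.7 and 6924 CPM in R783H against 6957 to 7041 CPM in WT. The 6 fibroblast markers summed to between 11.7 and 11.8 CPM in R783H against 10.8 to 11.8 CPM in WT, most of it Pdgfrb, which was called higher, while Thy1 was called lower and Dcn had 1 to 3 counts in each library. Their part in the results was not tested. The Trim71 transcript averaged 144 ± 12.8 CPM (R783H) and 140.5 ± 16.4 CPM (WT; SD, n = 3), a log2 ratio of 0.03 (SE 0.08) that was not called (edgeR quasi-likelihood, adjusted p 0.743). Its sign was not stable: leaving out a library gave values down to -0.02, and an offset for transcript length and GC content gave -0.27, which was called (adjusted p 0.00179). The counts do not show which residue the mRNA encodes.

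The p53 half-sites are shown here for the members whose listed promoters hold an exact copy. RefSeq promoters on GRCm38.p6 were listed for 26 of the 33 members, and the 250 bases before each listed start were searched on both strands for the p53 half-site consensus of 10 bases, which reads the same on both strands and has at its centre a C and a G around 2 bases that are each A or T. An exact copy was found in 8 of the 26 genes (30.8%), against 8.20% of all 27025 genes with a promoter and 7.14% of the 10766 that were tested. The half-site is in capitals, with up to 10 flanking bases in lower case, 5′ to 3′ on the strand of the gene.
Trp53: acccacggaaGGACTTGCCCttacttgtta
Mdm2: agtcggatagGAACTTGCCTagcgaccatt
Ppm1d: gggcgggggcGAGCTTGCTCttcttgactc
Ccng1: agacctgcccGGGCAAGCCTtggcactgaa
Sesn1: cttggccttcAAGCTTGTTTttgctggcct
Polk: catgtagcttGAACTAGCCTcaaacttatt
Aen: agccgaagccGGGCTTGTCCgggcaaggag
Ei24: cgtgcggcccGGGCATGCCC

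Their half-sites lie at chr11:69580284-69580293 (Trp53, plus strand), chr10:117710935-117710944 (Mdm2, minus), chr11:85311122-85311131 (Ppm1d, plus) and chr11:40755462-40755471 (Ccng1, minus), all outside annotated transcripts in GENCODE M21. The Sesn1 copy (chr10:41887266-41887275, plus) and the Polk copy (chr13:96519409-96519418, minus) lie in introns of their own genes, before a start within the gene. The Aen copy (chr7:78895937-78895946, plus) and the Ei24 copy (chr9:36797335-36797344, minus) lie in exons of transcripts that start further upstream. Ccng1 has a second half-site with 1 mismatch directly before the exact one, and Sesn1 has one with 2 mismatches ending 3 bases before. A match is a description of letters in this window.

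The comparison of R783H with WT asks how the mRNAs of this pathway differ when the Trim71 residue is changed. Of the 33 members 32 had enough counts to be tested, and 26 of them (81.2%) were called, that is, had a p under 0.05 in the edgeR quasi-likelihood fit once adjusted (Benjamini-Hochberg) for the 14199 genes tested. Of all tested genes 64.5% were called. In R783H 15 members were higher (46.9%, against 33.5% of all tested genes) and 11 lower (34.4%, against 30.9%). The R783H and WT ranges were separate for 23 tested members (71.9%), against 68.1% of all tested genes. Changes over 1.5-fold were called in 8 members (25%, against 24.6%), 6 higher and 2 lower. The median log2 ratio of the tested members was 0.08, beside 0.03 for all tested genes. The members are better counted than most genes, with a median level of 39.9 CPM against 22.9 CPM. The list therefore had members moving in both directions, and its share of calls is to be read against the many calls made across all genes. Of the 8 members with an exact half-site in a listed promoter 3 were higher, 4 lower and 1 was not called. Of the 17 tested members with a listed promoter and no exact copy 7 were higher, 6 lower and 4 not called, and of the 7 with no promoter listed 5 were higher, 1 lower and 1 not called.

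**Figure D1:**
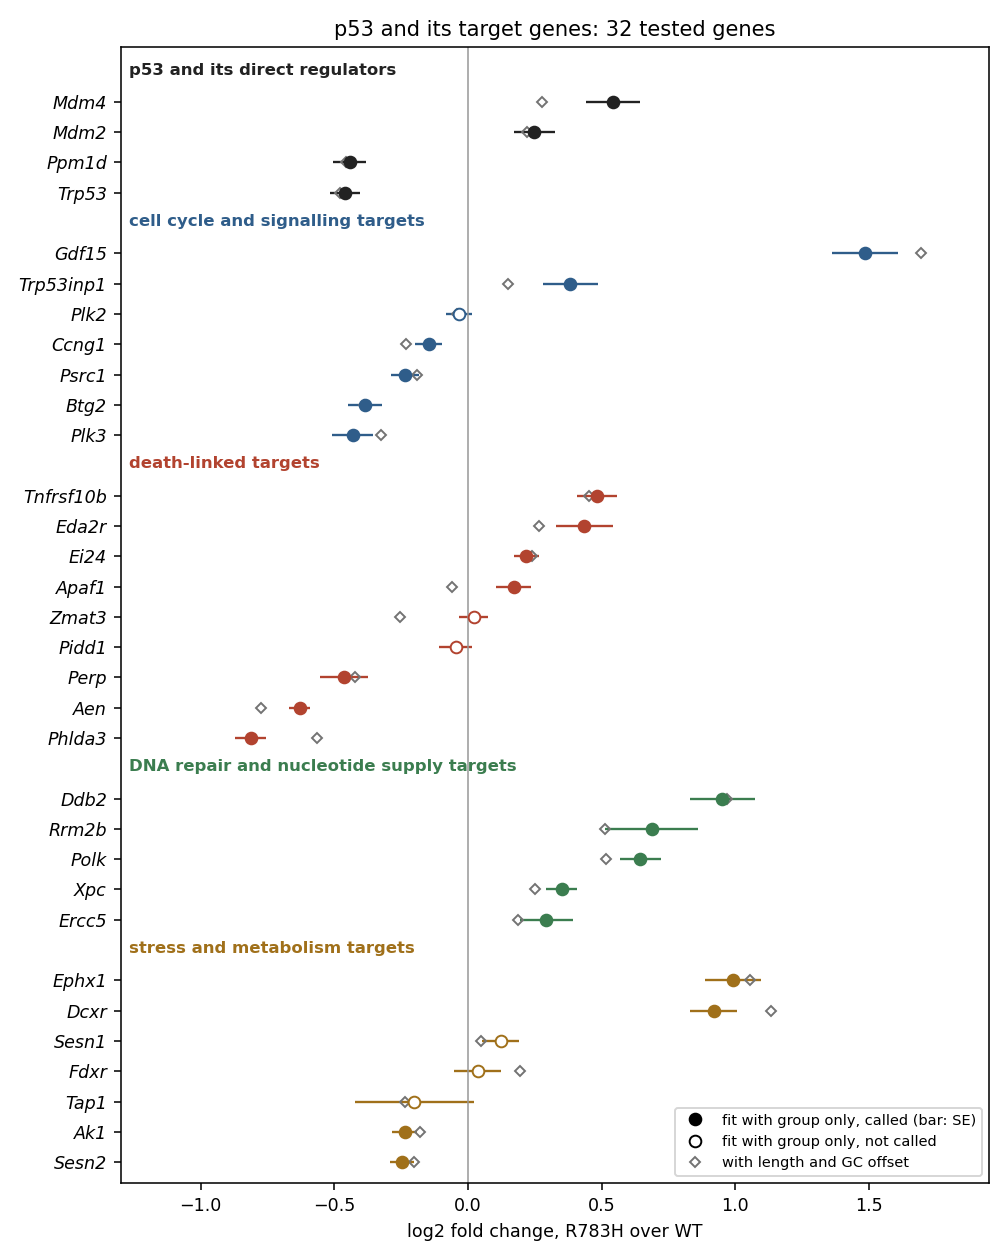
Log2 fold change of R783H over WT (x axis) for the 32 tested members, grouped by role; filled circles are genes called by edgeR's quasi-likelihood test, open circles are not called, bars are SE, and grey diamonds are the values with an offset for transcript length and GC content. The 5 DNA repair genes all lie to the right of 0, while the other 4 groups have called genes on both sides.

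Trp53 mRNA (Entrez 22059, chr11:69580348-69591873) was lower in R783H, while Mdm2 and Mdm4 were higher and Ppm1d was lower. Trp53 stood at 307, 337 and 284 CPM in R783H and at 428, 429 and 418 CPM in WT A, B and C. Every R783H library was below every WT library. The log2 ratio was -0.46 (SE 0.06), a ratio of 0.727 to WT (edgeR quasi-likelihood, adjusted p 3.45e-05). Leaving out each library kept it between -0.55 and -0.41. Per kb of transcript, Trp53 had the highest level of the 33 members in both groups, at 129.7 CPM per kb in WT and 94.3 in R783H.

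Mdm2 (chr10:117688875-117710758), the ligase that marks p53 for degradation, stood at 93.7, 75.8 and 92.2 CPM in R783H and at 72.0, 71.8 and 76.5 CPM in WT. R783H A and C were above all WT libraries, and R783H B lay within the WT range. The log2 ratio was 0.25 (SE 0.08; edgeR quasi-likelihood, adjusted p 0.0130), and the call was lost without R783H A (adjusted p 0.0694), without R783H C (0.0528) or without WT B (0.0538). Mdm4 (chr1:132986105-133030587), which binds the activation domain of p53 and lacks strong ligase activity of its own, stood at 112, 83.9 and 112 CPM in R783H against 65.6, 69.5 and 76.5 CPM in WT. Its groups did not overlap, and R783H B was again the lowest of its group. The log2 ratio of Mdm4 was 0.54 (SE 0.10; edgeR quasi-likelihood, adjusted p 7.01e-04). Given the offset for length and GC it was 0.28 (SE 0.06) and still called. Ppm1d (chr11:85311254-85347071), the phosphatase Wip1 that reverses damage signalling and is a p53 target, stood at 31.0, 32.8 and 31.9 CPM in R783H against 46.5, 42.3 and 41.4 CPM in WT. The log2 ratio was -0.44 (SE 0.06; edgeR quasi-likelihood, adjusted p 6.61e-05). The groups of Ppm1d did not overlap.

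**Figure D2:**
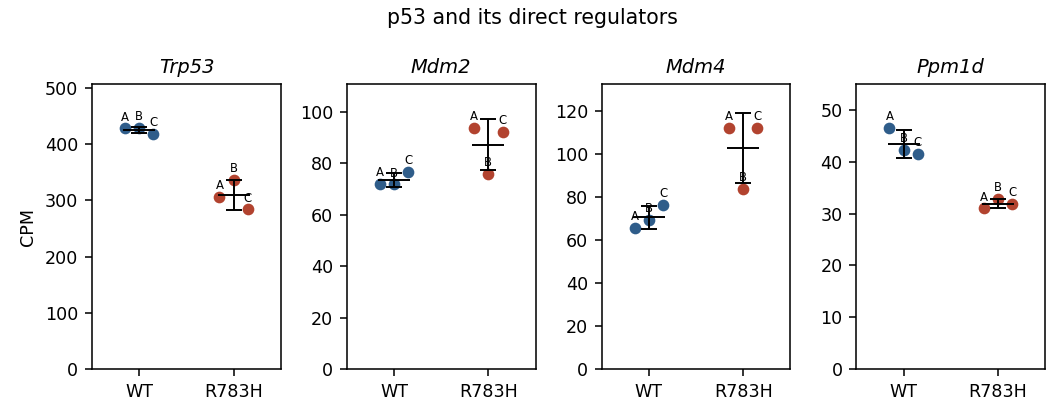
CPM (y axis, from 0) of Trp53, Mdm2, Mdm4 and Ppm1d in each WT and R783H library; points are libraries A, B and C, the horizontal mark is the mean and the bar is the SD (n = 3). The R783H points of Trp53 and Ppm1d lie below all WT points, and R783H B is the lowest R783H point of Mdm2 and Mdm4.

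Ratios of counts within a library do not depend on the scaling between libraries, but a shift of a library with transcript length stays in them. The longest transcript has 7105 nt for Mdm4, 3145 nt for Mdm2 and 3275 nt for Trp53. The 6 ratios examined were chosen after the values had been seen. Per 100 Trp53 reads there were 30.5, 22.5 and 32.5 Mdm2 reads in R783H and 16.8, 16.7 and 18.3 in WT. Mdm4 gave 36.5, 24.9 and 39.5 reads per 100 Trp53 reads in R783H against 15.3, 16.2 and 18.3 in WT. Ppm1d gave 10.4 ± 0.768 in R783H and 10.2 ± 0.569 in WT (SD, n = 3), where the groups overlapped (two-sided exact permutation p = 0.7). The groups did not overlap for the Mdm2 and Mdm4 ratios. Each of those had a two-sided exact permutation p of 0.1, the smallest that 3 against 3 libraries can give, and 0.12 after Benjamini-Hochberg adjustment over the 6 ratios. Mdm4 and Trp53 were each separate between the groups, in opposite directions, so the Mdm4 ratio had to be separate too. The Mdm2 ratio rests on the same Trp53 values, which were already separate, and was chosen after they had been seen. Neither p therefore adds support. Per 100 Mdm2 reads there were 120, 111 and 122 Mdm4 reads in R783H and 91.1, 96.9 and 100 in WT (two-sided exact permutation p = 0.1). That ratio was also chosen with the values known.

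The DNA repair and nucleotide supply targets were all called higher in R783H, 5 of 5, where 33.5% of all tested genes were called higher. Their median log2 ratio was 0.65, and 0.51 with the length and GC offset. The members were chosen with earlier results of these data known, so this count describes the list and is not a test of it. Polk, a translesion DNA polymerase, stood at 25.3, 22.0 and 24.8 CPM in R783H against 14.6, 16.02 and 15.5 CPM in WT. The groups did not overlap. The log2 ratio was 0.65 (SE 0.08; edgeR quasi-likelihood, adjusted p 2.27e-05). Xpc, which recognises helix-distorting lesions in nucleotide excision repair, stood at 53.6, 47.7 and 51.5 CPM against 38.6, 39.8 and 41.3 CPM. Its log2 ratio was 0.35 (SE 0.06). Rrm2b, the p53-inducible subunit of ribonucleotide reductase, stood at 7.45, 5.57 and 8.07 CPM against 3.42, 4.32 and 5.34 CPM. The groups were separate by a narrow margin, between R783H B and WT C, and the log2 ratio was 0.69 (SE 0.17). Rrm2b shares exon sequence with the antisense gene Gm49085.

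Ddb2, the damaged-DNA binding subunit that hands ultraviolet lesions to excision repair, stood at 8.22, 6.66 and 7.73 CPM in R783H against 4.16, 3.51 and 4.08 CPM in WT. All R783H libraries were higher, with a log2 ratio of 0.95 (SE 0.12; edgeR quasi-likelihood, adjusted p 4.37e-05). Ddb2 overlaps an exon of Acp2 on the opposite strand, and Acp2 itself was higher, at 30.6 ± 0.414 CPM against 15.8 ± 0.929 CPM (SD, n = 3; log2 ratio 0.95, SE 0.06). The use of strand in counting is not given in the sources used here, so reads of the shared stretch cannot be told apart between the 2 genes. Ercc5, the excision repair endonuclease XPG, stood at 22.4, 18.6 and 25.1 CPM against 17.9, 18.8 and 17.2 CPM, and R783H B lay inside the WT range. Its log2 ratio was 0.29 (SE 0.10; edgeR quasi-likelihood, adjusted p 0.0237). The call was lost without R783H A, R783H C, WT A or WT C, where the adjusted p ran from 0.0611 to 0.111 and the log2 ratio fell to 0.18 without R783H C. It was also lost with the length and GC offset (0.19, adjusted p 0.0580). In those fits 4 of the 5 repair genes were called higher and 0 lower.

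The 7 cell cycle and signalling targets divided, with 2 higher, 4 lower and 1 not called. Of all tested genes 33.5% were called higher and 30.9% lower. Gdf15, a secreted stress cytokine, had the largest change of the members. It stood at 17.2, 17.4 and 14.0 CPM in R783H against 5.84, 6.61 and 4.83 CPM in WT, so the lowest R783H library was above the highest WT library. The log2 ratio was 1.49 (SE 0.12), a ratio of 2.80 (edgeR quasi-likelihood, adjusted p 1.83e-06). Trp53inp1, a stress protein that modulates p53 activity and autophagy, stood at 167, 133 and 169 CPM against 104, 119 and 136 CPM. R783H B lay below WT C. The log2 ratio was 0.38 (SE 0.10), and 0.15 with the length and GC offset, still called.

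Lower in R783H were Btg2, Plk3, Psrc1 and Ccng1. Btg2, an antiproliferative cofactor of mRNA deadenylation, stood at 34.7, 37.7 and 37.4 CPM in R783H against 46.9, 45.1 and 51.4 CPM in WT (log2 ratio -0.38, SE 0.06). Plk3, a stress-responsive polo-like kinase, stood at 13.5, 11.9 and 12.6 CPM against 17.7, 17.5 and 16.1 CPM (-0.43, SE 0.08). It shares exon sequence with the antisense gene Tctex1d4, which was counted at 0.268 CPM or less in the mean of either group. Psrc1, a microtubule-associated protein of mitosis, changed by -0.23 (SE 0.05), from 115 ± 6.55 to 98.02 ± 3.34 CPM (SD, n = 3), and by -0.15 with scaling by library size alone, still called. None of these 3 genes overlapped between the groups.

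Ccng1, an atypical cyclin that recruits a phosphatase to Mdm2, stood at 162, 146 and 158 CPM in R783H against 164, 174 and 178 CPM in WT. The groups were adjacent, and the log2 ratio was -0.15 (SE 0.05; edgeR quasi-likelihood, adjusted p 0.0252). It was not called without WT B (adjusted p 0.0860), without WT C (0.0906) or with scaling by library size alone (-0.07, adjusted p 0.300), while the length and GC offset gave -0.23, called. Plk2, another polo-like kinase, stood at 47.6 to 49.4 CPM in R783H against 48.9 to 50.8 CPM in WT and was not called, with a log2 ratio of -0.04 (SE 0.05).

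Of the 10 death-linked targets 9 were tested, with 4 higher, 3 lower and 2 not called, where 64.5% of all tested genes were called. The 2 largest decreases of all members, those of Phlda3 and Aen, were in this group. Phlda3, a pleckstrin-homology protein that restrains Akt, stood at 60.7, 70.7 and 67.8 CPM in R783H against 118, 115 and 117 CPM in WT, a log2 ratio of -0.81 (SE 0.06; edgeR quasi-likelihood, adjusted p 5.72e-07). The offset for length and GC gave -0.56 (SE 0.05), also called. Aen, an exonuclease linked to apoptosis, stood at 105, 106 and 107 CPM against 164, 163 and 166 CPM. Its R783H libraries lay closer together than those of Phlda3 (SD 0.826 against 5.12 CPM). The log2 ratio of Aen was -0.63 (SE 0.04; edgeR quasi-likelihood, adjusted p 3.09e-07), and -0.77 with the offset. Perp, a tetraspan membrane protein, stood at 6.52, 6.70 and 6.65 CPM against 9.70, 8.64 and 9.09 CPM, again without overlap (-0.46, SE 0.09).

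Both measurable death receptors were higher. Tnfrsf10b, the mouse receptor for TRAIL, stood at 32.6, 37.0 and 35.4 CPM in R783H against 25.3, 22.9 and 27.0 CPM in WT, with no overlap (log2 ratio 0.48, SE 0.07). Its longest transcript shares a stretch of 119 nt with 2 other annotated genes. Eda2r, the receptor for ectodysplasin A2, stood at 32.9, 27.2 and 34.0 CPM against 20.1, 22.9 and 26.5 CPM (0.44, SE 0.11). R783H B and WT C were nearly equal, and with the length and GC offset the value was 0.27 (SE 0.07), still called. Fas, the receptor for Fas ligand, had 2, 3 and 0 counts in R783H and 3, 7 and 2 counts in WT, at or under the floor of 3 counts in all but 1 library, and was not tested.

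Ei24, an endoplasmic reticulum protein of autophagy, stood at 119, 120.3 and 118 CPM in R783H against 100.4, 99.5 and 107 CPM in WT (log2 ratio 0.22, SE 0.05), and shares exon sequence with the antisense gene Gm26787. Apaf1, the scaffold of the apoptosome, stood at 70.4, 64.8 and 76.8 CPM against 59.9, 63.1 and 65.2 CPM, with R783H B inside the WT range. Its log2 ratio of 0.17 (SE 0.07) was called (edgeR quasi-likelihood, adjusted p 0.0368). The sign turned to -0.06 with the length and GC offset, where it was not called, and there was no call with RLE factors, with DESeq2, or when WT A, WT B, R783H A or R783H C (value then 0.10) was left out. Pidd1, the death-domain protein of the PIDDosome, was at 31.8 to 34.7 CPM in R783H against 32.8 to 36.0 CPM in WT and was not called (-0.05, SE 0.06). Zmat3, an RNA-binding regulator of splicing, was at 129 to 131 CPM in R783H against 120.2 to 138 CPM in WT and was not called (0.02, SE 0.05), but was called lower under the length and GC offset, at -0.25 (edgeR quasi-likelihood, adjusted p 1.57e-04).

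Among the 7 stress and metabolism targets, 2 were higher, 2 lower and 3 not called, where 64.5% of all tested genes were called. The increases were the larger. Ephx1, the microsomal epoxide hydrolase, stood at 19.3, 21.1 and 17.4 CPM in R783H against 8.91, 11.0 and 8.999 CPM in WT, a log2 ratio of 0.99 (SE 0.10; edgeR quasi-likelihood, adjusted p 8.93e-06). It shares exon sequence with Gm36961 on the same strand. Dcxr, a reductase of sugars and carbonyls, stood at 28.3, 29.1 and 24.2 CPM against 15.5, 14.6 and 13.2 CPM. Its log2 ratio was 0.92 (SE 0.09; edgeR quasi-likelihood, adjusted p 4.93e-06). The groups of both genes were well apart.

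Sesn2, a sestrin that restrains mTORC1, stood at 117, 119 and 111 CPM in R783H against 142, 136 and 134 CPM in WT (log2 ratio -0.25, SE 0.05). Ak1, an adenylate kinase, stood at 90.7, 99.7 and 94.9 CPM against 113, 111 and 111 CPM (-0.24, SE 0.05, and -0.16 with library size alone, still called). The other sestrin, Sesn1, stood at 27.2, 26.4 and 26.8 CPM against 26.0, 22.5 and 25.5 CPM and was not called (0.12, SE 0.07), although its groups did not overlap. It was called higher with scaling by library size alone (0.20, adjusted p 0.0202). Fdxr, the mitochondrial ferredoxin reductase, was at 16.2 to 19.1 CPM in R783H against 15.4 to 18.3 CPM in WT and was not called (0.04, SE 0.09), but was called higher under the length and GC offset (0.20, adjusted p 0.0202). Tap1, a peptide transporter of antigen presentation, was at 1.11 to 1.52 CPM in R783H against 1.12 to 1.78 CPM in WT and was not called (-0.20, SE 0.22). It shares exon sequence with Psmb9 on the opposite strand.

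**Figure D3:**
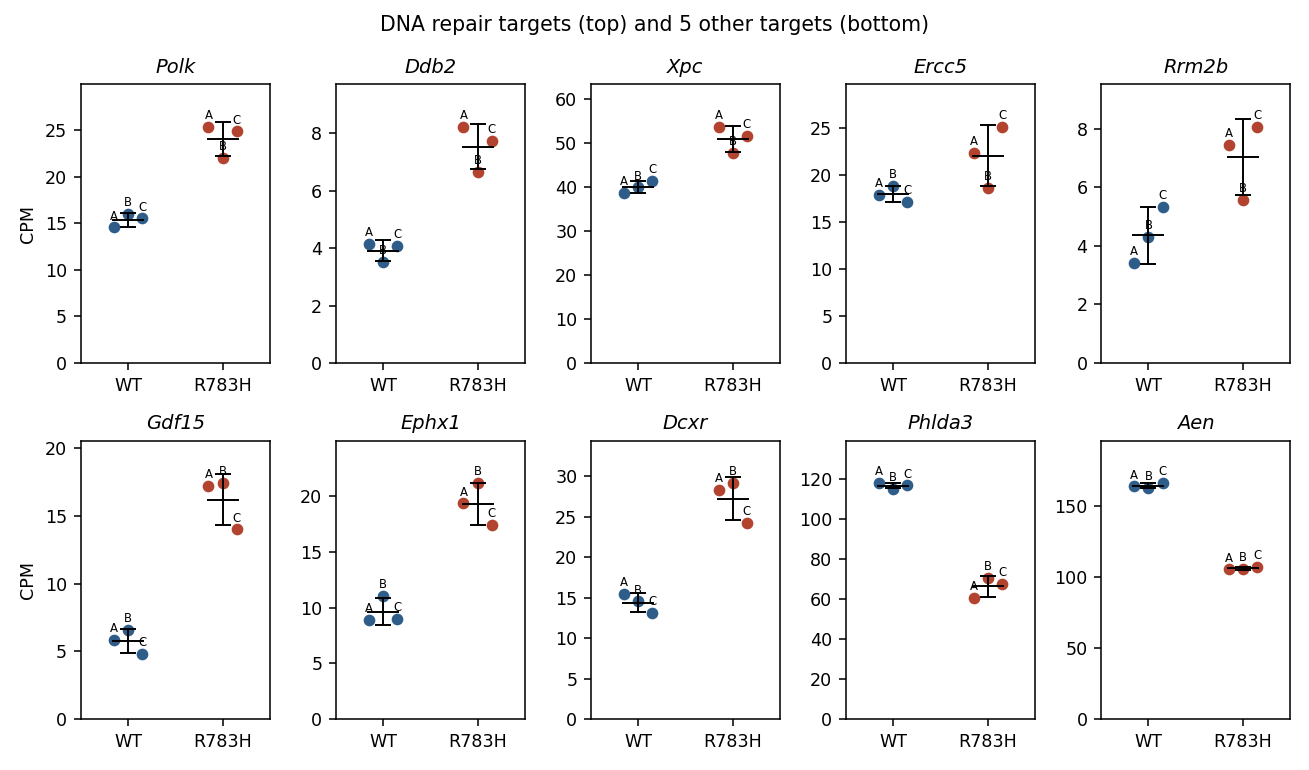
CPM (y axes, from 0) of the 5 DNA repair members (top row) and of Gdf15, Ephx1, Dcxr, Phlda3 and Aen (bottom row) in each WT and R783H library; points are libraries A, B and C, the horizontal mark is the mean and the bar is the SD (n = 3). R783H lies above WT without overlap in each panel except those of Ercc5, where R783H B falls inside the WT range, and of Phlda3 and Aen, where R783H lies below.

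Per kb of transcript, the WT levels of the members ran from 129.7 CPM per kb for Trp53 and 81.3 for Phlda3, through 49.0 for Ccng1, 23.3 for Mdm2 and 9.93 for Mdm4. The lowest were 1.70 for Ddb2, 0.956 for Rrm2b, 0.390 for Tap1 and 0.108 for Fas, which was not tested. In R783H Trp53 again came first, but Phlda3 (46.3 CPM per kb) stood below Ei24 (51.6) and Psrc1 (48.5). Phlda3 was called lower and Ei24 higher. Psrc1 was itself called lower, from 57.1 CPM per kb in WT. The log2 ratio of the members had a Spearman rho of -0.412 with their mean log2 CPM over 32 genes, as a description of genes that share the same libraries. The same rho over all tested genes was not taken. Many of the larger increases were in genes of low level, such as Ddb2, Rrm2b, Gdf15 and Polk. The abundant Trp53, Aen and Phlda3 were lower. Other members went against this pattern. The abundant Trp53inp1, Mdm4, Ei24 and Mdm2 were called higher, and Perp and Plk3, of low level, were called lower.

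Single libraries moved together with transcript length across the members. R783H B was the lowest or the highest of its group for 31 of the 32 tested members. The same held for WT C in 26 members, WT A in 23 and WT B in 15. For each gene only the middle library of a group is neither, and the share over all tested genes was not taken. The difference of R783H B from the mean of R783H A and C had a Spearman rho of -0.580 with transcript length over the 32 members. The same measure was -0.547 for WT A and, in the opposite direction, 0.560 for WT C. The values of WT A and WT C are not independent, as each is measured against the other. R783H B thus had lower values than the other R783H libraries for some long transcripts, such as Mdm4, Trp53inp1, Eda2r and Rrm2b. WT A was the lowest WT library for the same 4 genes. Not every long member followed. Zmat3, the longest at 7797 nt, was highest in R783H B (131 CPM, against 129 in A and 130 in C). Aen (4956 nt) was nearly level. Between the groups, the log2 ratio had a rho of 0.0880 with transcript length over the 32 members, against 0.256 over the 13067 tested genes with a length. Members called higher had a median transcript length of 4225 nt and members called lower 2743 nt.

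With an offset for transcript length and GC content, 26 members were called, 14 higher and 12 lower. Of all genes in that fit 68.7% were called, 31.3% higher and 37.5% lower. Of the members, 24 were called in both fits, all with the same sign. The part of length in the remaining differences was not tested.

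**Figure D4:**
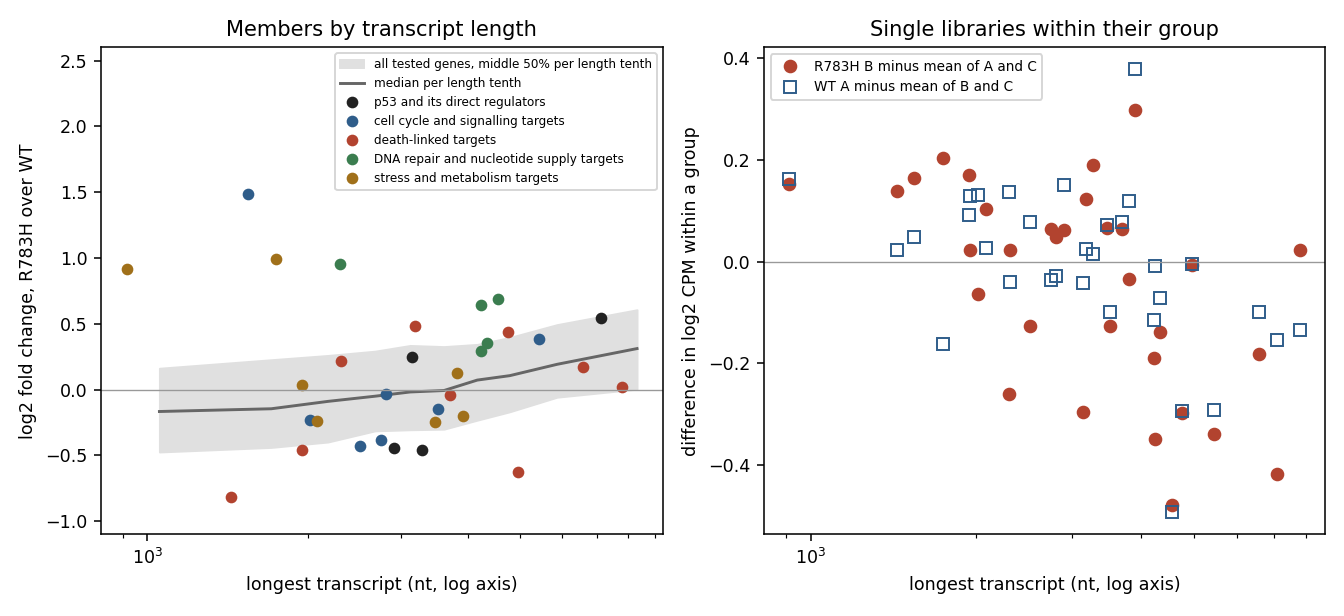
Left, log2 ratio of R783H over WT against the length of the longest transcript (nt, log axis) for the 32 tested members, over the median (line) and middle 50% (grey) of all tested genes in 10 length classes. Right, the log2 CPM of R783H B minus the mean of R783H A and C (circles) and of WT A minus the mean of WT B and C (squares) for the same genes; both fall with length, with Spearman rho of -0.580 and -0.547.

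Targets of p53 outside the 33 genes were also divided. Of a list of 10 further targets 1 was called higher, 3 lower and 6 not called, with a median log2 ratio of -0.05. Calls thus came to 4 of the 10, where 64.5% of all tested genes were called. The balance turned under the length and GC offset, to 4 increases and 2 decreases among the calls (median 0.07). Scaling by library size alone gave 4 increases and 3 decreases (median 0.03). Under the other alternatives decreases stayed the more frequent. Cdkn1a, the CDK inhibitor through which p53 arrests the cell cycle, stood at 202, 216 and 195 CPM in R783H against 147, 143 and 143 CPM in WT, a log2 ratio of 0.50 (SE 0.05). The apoptosis gene Bbc3, which encodes Puma, stood at 14.3, 15.3 and 15.5 CPM against 22.3, 22.5 and 21.1 CPM (-0.55, SE 0.07). The length and GC offset left Cdkn1a at 0.56 and moved Bbc3 to -0.24 (SE 0.06; adjusted p 0.00312), with both still called. The groups were separate in opposite directions for the arrest gene and this death gene. Per 100 Cdkn1a reads there were 7.07, 7.10 and 7.96 Bbc3 reads in R783H and 15.2, 15.7 and 14.8 in WT (two-sided exact permutation p = 0.1, the smallest possible). Per 100 Trp53 reads there were 66.0, 64.2 and 68.6 Cdkn1a reads in R783H against 34.3, 33.3 and 34.2 in WT. The genes of each ratio were already separate in opposite directions, so both ratios had to be separate, and this p adds no support. Cdkn1a shares exon sequence with an antisense gene, as do Tigar and Atr, and Bax shares some with Gm45808.

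Bax, the pore-forming death effector, changed by -0.26 (SE 0.06), from 326 ± 15.6 to 273 ± 21.6 CPM (SD, n = 3), but with the length and GC offset its value was 0.03 and it was not called. Pmaip1, which encodes Noxa, stood at 6.45, 5.29 and 7.56 CPM in R783H against 5.20, 4.16 and 5.67 CPM in WT, which overlap, with a log2 ratio of 0.37 (SE 0.15; edgeR quasi-likelihood, adjusted p 0.0545). It was called under 8 of the 16 alternatives, among them the fits without R783H B (adjusted p 0.00607) and without WT C (0.0394). Without R783H C its value fell to 0.23 (adjusted p 0.223) and without WT B to 0.24 (0.233). Tigar, a phosphatase that lowers glycolytic flux, changed by -0.33 (SE 0.04), from 239.9 ± 7.47 to 191 ± 3.92 CPM (SD, n = 3).

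Of 18 kinases and other regulators of p53, 17 were tested, with 8 called higher, 3 lower and 6 not called. The 4 largest changes were increases. Cdkn2a, whose alternative product Arf inhibits Mdm2, stood at 26.6, 30.9 and 29.1 CPM in R783H against 17.9, 17.3 and 16.7 CPM in WT, a log2 ratio of 0.74 (SE 0.07). The gene-level counts do not separate Arf from the CDK inhibitor of the same gene. Atr, the kinase that senses stalled replication, stood at 71.7, 60.6 and 78.7 CPM against 40.2, 44.6 and 49.1 CPM (0.66, SE 0.10), and at 0.33 with the length and GC offset, still called. The ribosomal proteins Rpl11 and Rpl5, which bind Mdm2 when ribosome assembly is disturbed, changed by 0.52 (SE 0.10) and 0.48 (SE 0.09). Both have near-identical pseudogenes, so their counts are uncertain. With the length and GC offset 4 of these 17 regulators were called higher and 6 lower. Of all tested genes 33.5% were called higher and 30.9% lower without the offset, and 31.3% and 37.5% with it. The balance of this list thus turned with that setting, as did that of all genes.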

How the data were processed

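Poly(A) RNA from 3 R783H and 3 WT libraries was measured. The authors deposited raw read counts per gene, with Entrez identifiers, per the file header 1 column per alignment file. The submitters' processing notes name CASAVA 1.4, HISAT2, SAMtools and the build mm10. The counting tool, annotation and use of strand are not given in the sources used here. All 6 columns were assigned from titles, and 0 were left out.

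Symbols came from RefSeq (GRCm38.p6; 25275 of 27179 identifiers matched). Length and GC came from the longest GENCODE M21 transcript, for 13067 of 14199 tested genes (92.0%). Copies were sought with BLAST 2.17.0 (98% identity over 100 nt). R 4.3.3 and edgeR 4.0.16 were used. filterByExpr (minimum count 10, minimum total 15), TMM scaling and the quasi-likelihood test with group as the single term gave log2 fold changes. A gene is called at a Benjamini-Hochberg adjusted p under 0.05, and SE is the absolute log2 fold change over the square root of F. In simulated counts the fit called 87 of 100 genes changed 2-fold and 80 of 100 changed 1.5-fold, with 12 calls among 13824 unchanged genes. The simulation left most genes unchanged and held no shift of libraries with transcript length. Its numbers therefore give no error rate for the calls made here. The floor of 3 counts is 0.0998 to 0.149 CPM. Counts without molecular identifiers are not independent molecules. The common coefficient of variation was 5.45%.

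Members and lists were chosen with earlier results of these data known. All members were named, with 4 fixed further targets, up to 3 other called targets, up to 4 called regulators by size of change, and Trim71. Acp2 and the other genes sharing exons, and the 6 ratios, were added after values were seen. The 16 alternatives were other scalings and filters, DESeq2 1.42.0, limma-voom (limma 3.58.1), each library left out, a replicate block, equal depth, and an offset from splines on length and GC.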

Additional observations from a re-analysis of the deposited data

How the results depend on the processing

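The number of members called higher (15) ran from 12 to 16 and the number called lower (11) from 10 to 12 over the 16 alternatives. Of the 26 called members 22 kept call and sign under every alternative run, and Mdm2, Ccng1, Apaf1 and Ercc5 did not. The median log2 fold change of the members (0.08) was 0.0578 with RLE factors, 0.161 with library size alone, 0.0413 with no filter (33 genes), 0.0151 with DESeq2 (33 genes) and 0.00353 with the length and GC offset, and between 0.0506 (without R783H B) and 0.110 (without WT C) with 1 library left out. Signs turned, with no call unless stated, for Plk2 (0.0461) and Pidd1 (0.0360) with library size alone, for Apaf1 (-0.0603) and Bax (0.0325) with the offset, for Zmat3 with RLE factors (-0.000607), DESeq2 (-0.00183), with the offset (-0.25, called), and without R783H B or WT A, and for Fdxr without R783H B or WT C. Trim71 turned without R783H A, R783H C, WT A or WT B, and with the offset (-0.27, called). With 1 library left out, Zmat3 ran from -0.0249 to 0.0757, Fdxr from -0.0451 to 0.0855 and Trim71 from -0.0219 to 0.131. The causes were not tested. The offset was fitted to each of these same libraries without a term for group. It can therefore also remove differences between the groups that go with length or GC. With the replicate letter as a replicate block 15 members were higher and 11 lower, and Pmaip1 was called (0.36, adjusted p 0.0137). The labels do not say what a letter stands for, and the letters were not treated as pairs: deviations of same-lettered libraries from their group means correlated at -0.362 (A), 0.0684 (B) and 0.420 (C) over 9500 genes, and R783H C correlated best with its own letter while R783H A and B did not. Depth limits Fas and Tap1, the former under the filter.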
